A study of Homo sapiens with 12 samples.

Results

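The genes described here are 46 genes of the primary cilium and of intraflagellar transport, the traffic of protein trains along it. They were chosen by name: the motors, the subunits of the IFT-B and IFT-A trains, the BBSome, proteins of the transition zone and basal body, and the polycystins and other membrane proteins. Of the 46 genes, 44 had at least 1 probe set of their own on the array and 41 passed a filter on low values, among 10623 genes tested in all. The rule that names them uses no measured value, although the list was drawn up with earlier results of these data known.

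Expression was measured on 12 Affymetrix arrays in HK-2, an established human cell line derived from the proximal tubule of the kidney. The 4 groups, with 3 biological replicates each, were cells given the compound named Di for 12 h, their vehicle controls at 12 h, cells given Di for 48 h, and their vehicle controls at 48 h. All wells were seeded 24 h before treatment and treated at about 90% confluence, in medium with epidermal growth factor, hydrocortisone, insulin, transferrin and selenite. The sources used here state neither the identity of Di nor the dose, and HK-2 is 1 cell line. Values are log2 expression, and a gene was called higher or lower at an adjusted p under 0.05 (limma, Benjamini-Hochberg over the 10623 genes).

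The primary cilium is a solitary, non-motile projection built on the older centriole, and most renal tubular cells carry it on their luminal side. Kinesin-2 moves IFT-B trains with their cargo to the tip, and cytoplasmic dynein 2 with IFT-A brings them back; the BBSome takes membrane proteins out, and the transition zone at the base works as a gate. Inherited loss of these parts causes polycystic kidney disease, nephronophthisis, Bardet-Biedl syndrome and skeletal ciliopathies. No cilium was observed or counted in these data, which hold only RNA levels.

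Many genes of the cilium carry an X-box, the site bound by RFX transcription factors, near their start. The RefSeq promoter table (GRCh38.p14, from 250 bases before to 50 bases after the start) held 41 of the 46 members. The core letters GTTGCC or their reverse complement GGCAAC, which together cover either strand and cannot overlap each other, were found in 17 of these 41 windows (41.5%), against 4279 of 35116 windows in the whole table (12.2%). No member window held GTTGCC and GGCAAC joined with a gap of up to 3 bases, which 58 windows of the table did (0.165%). The 120 bases before the start are printed for 6 members whose levels are described in what follows and whose core lies within them, 5′ to 3′ on the gene's strand, with the core in capitals:
DYNC2H1, chr11:103109306-103109425, strand +: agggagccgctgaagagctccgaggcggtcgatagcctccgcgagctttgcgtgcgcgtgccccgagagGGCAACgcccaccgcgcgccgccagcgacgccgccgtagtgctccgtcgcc
DYNC2LI1, chr2:43773919-43774038, strand +: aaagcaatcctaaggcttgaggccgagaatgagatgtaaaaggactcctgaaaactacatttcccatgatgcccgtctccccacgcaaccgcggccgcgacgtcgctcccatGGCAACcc
IFT27, chr22:36776120-36776239, strand −: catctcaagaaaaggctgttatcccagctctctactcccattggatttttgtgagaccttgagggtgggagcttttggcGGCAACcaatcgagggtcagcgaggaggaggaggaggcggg
IFT122, chr3:129440104-129440223, strand +: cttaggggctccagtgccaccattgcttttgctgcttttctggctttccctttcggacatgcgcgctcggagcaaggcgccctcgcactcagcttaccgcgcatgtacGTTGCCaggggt
TULP3, chr12:2890771-2890890, strand +: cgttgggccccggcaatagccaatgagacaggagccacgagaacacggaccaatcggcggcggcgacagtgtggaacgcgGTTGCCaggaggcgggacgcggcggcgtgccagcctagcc
ARL6, chr3:97764638-97764757, strand +: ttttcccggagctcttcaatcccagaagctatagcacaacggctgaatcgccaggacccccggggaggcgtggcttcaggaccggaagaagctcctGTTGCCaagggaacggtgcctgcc
These are matches of 6 letters, which are only part of an X-box, and not measured binding sites. DYNC2H1 holds GGCAAC again after its start, at position 16, besides the copy at position -51.

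The arrays were alike in level, with medians between 2.97 and 3.06, and correlations between arrays of 1 group were 0.995 to 0.998 (Pearson's r over probe sets, whose values depend on each other). The array farthest from its group mean was replicate 2 of Di at 12 h, with a root mean square deviation of 0.252, against 0.111 to 0.182 on the other arrays. It was the lowest array of its group for 27 of the 41 members (65.9%) and for 51.8% of all genes tested. Replicate 1 of Di at 48 h was the lowest of its group for 23 members (56.1%) and 46.6% of all genes. The actin 3′ minus 5′ gap, a measure of RNA integrity, at 12 h was 1.22 ± 0.239 with Di and 1.71 ± 0.178 with vehicle (SD, n = 3 each; exact permutation test, two-sided p = 0.1, which is the smallest value possible with 3 arrays a group). At 48 h the gap was 1.41 ± 0.0776 in Di and 1.33 ± 0.128 in control (SD, n = 3 each; exact permutation p = 0.5). The same gap of GAPDH at 12 h was 0.0518 ± 0.0994 with Di and 0.126 ± 0.0841 with vehicle (exact permutation p = 0.3). The GAPDH gap at 48 h was -0.034 ± 0.0396 in Di and 0.000125 ± 0.0206 in control (exact permutation p = 0.2). The part of these differences in the results was not tested.

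The labelled cell type was checked with marker lists. Of 8 renal epithelial markers 7 were above the filter, among them the keratins KRT8 and KRT18 and the transcription factor PAX8. Of 11 measured proximal tubule markers only PDZK1, a scaffold of apical transporters, passed, and the other 10 stayed under a log2 value of 4 on all 12 arrays, LRP2 and CUBN among them. Of 13 measured markers of multiciliated cells only CAPS passed. The other 12 lay under that value on every array. Of 6 fibroblast markers 3 passed, COL1A1, DCN and LUM. Of 7 measured distal and collecting duct markers only AQP2 passed, and none of 5 measured endothelial and leukocyte markers did.

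Of the 41 tested members, 40 lay above a log2 value of 4 on every array, so they were not kept through 1 group alone. The exception was NEK8, which lay under 4 on 2 of the 3 arrays of Di at 48 h and above it on the others. IFT140, BBS5 and PKHD1, which encode an IFT-A subunit, a BBSome subunit and fibrocystin, stayed under 4 on all arrays and were not tested. TTC21B and PKD2 had no probe set paired with them alone in the gene table used here. The 44 members had 106 probe sets, 66 of them kept, and 20 members had more than 1 kept probe set. A probe set's level depends on its own probes, so levels are compared between groups and not between genes.

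With Di at 12 h, 7 of the 41 members were called lower and none higher: CYS1, the dynein heavy chain DYNC2H1, the IFT-A subunits WDR19 and IFT122, and the BBSome genes BBS2, ARL6 and BBS12. At 48 h, 14 members were called lower and 8 higher. CYS1, which encodes the ciliary membrane protein cystin, was 20.3-fold lower at 48 h, and no other member differed between Di and control by more than 2.64-fold. Among the members called lower at 48 h were also ARL6, NEK8, IFT81, DYNC2LI1, IFT80, IFT74 and DYNC2H1; the largest increases were those of CEP290 and IFT27. WDR35 is counted among the lower calls by its tested probe set, but a second one was called higher.

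Read against all genes, these counts were not large. At 12 h 17.1% of the members were called lower, against 9.8% of all genes, and none higher, against 3.9% of all genes; in either direction 13.7% of all genes were called. The median change of the members was -0.19, against -0.06 over all genes tested, and 31 of the 41 changes were negative. Members whose 3 Di arrays did not overlap the 3 control arrays numbered 1 higher and 14 lower (36.6%), against 34.8% of all genes, 11.1% higher and 23.7% lower.

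At 48 h 34.1% of the members were called lower, against 28.0% of all genes, and 19.5% higher, against 22.9%; in either direction 53.7% of members and 50.9% of all genes were called. The median change was -0.20 in the members and -0.02 over all genes. Groups did not overlap for 9 members on the higher side and 17 on the lower side (63.4%), against 61.6% of all genes, 28.6% higher and 33.0% lower. The change differed between the times for 13 members (31.7%), 6 upward and 7 downward, against 38.3% of all genes, 19.7% upward and 18.5% downward. In whole cultures, fewer cells carrying a cilium and less RNA per cell cannot be told apart.

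Marker lists moved at 48 h as well. The summed linear level of the 8 renal epithelial markers ran from 14271 to 15533 over the Di arrays and from 18066 to 19901 over the control arrays, with 4 of 7 tested genes called lower and 2 higher. Of all genes, 28.0% were called lower and 22.9% higher. That of the 6 fibroblast markers ran from 684 to 871 over the Di arrays and from 1366 to 1458 over the control arrays. DCN and LUM were called lower, and COL1A1 was not called (-0.16). COL1A2, COL3A1 and PDGFRA lay under the filter. The sum of the 13 multiciliated markers was 99.3 to 105 in Di and 96.9 to 101 in control. The part of these shifts in the members' changes was not tested.

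**Figure D1:**
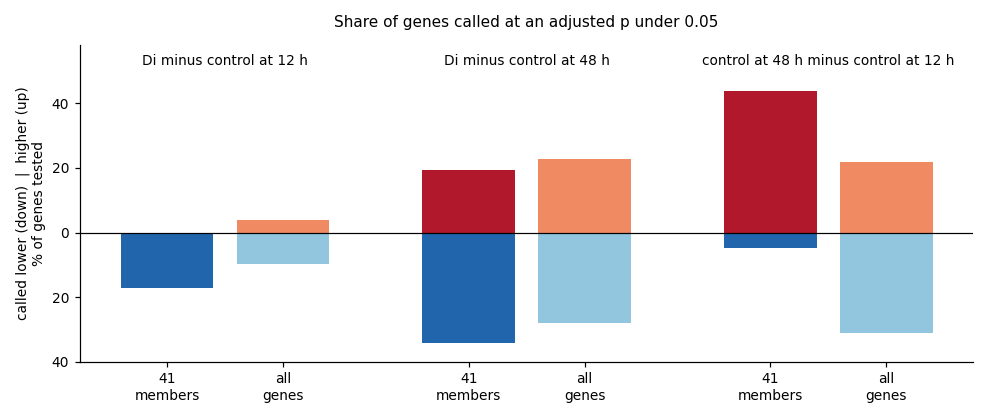
Share of genes called at an adjusted p under 0.05 (vertical axis, percent of genes tested, higher above 0 and lower under it) for the 41 tested members and for all 10623 genes in 3 comparisons. With Di at 12 h, 17.1% of members were called lower, against 9.8% of all genes, and none higher, against 3.9%. With Di at 48 h, 34.1% were called lower, against 28.0%, and 19.5% higher, against 22.9%. In control cells, 43.9% were called higher at 48 h than at 12 h, against 21.9% of all genes.

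**Figure D2:**
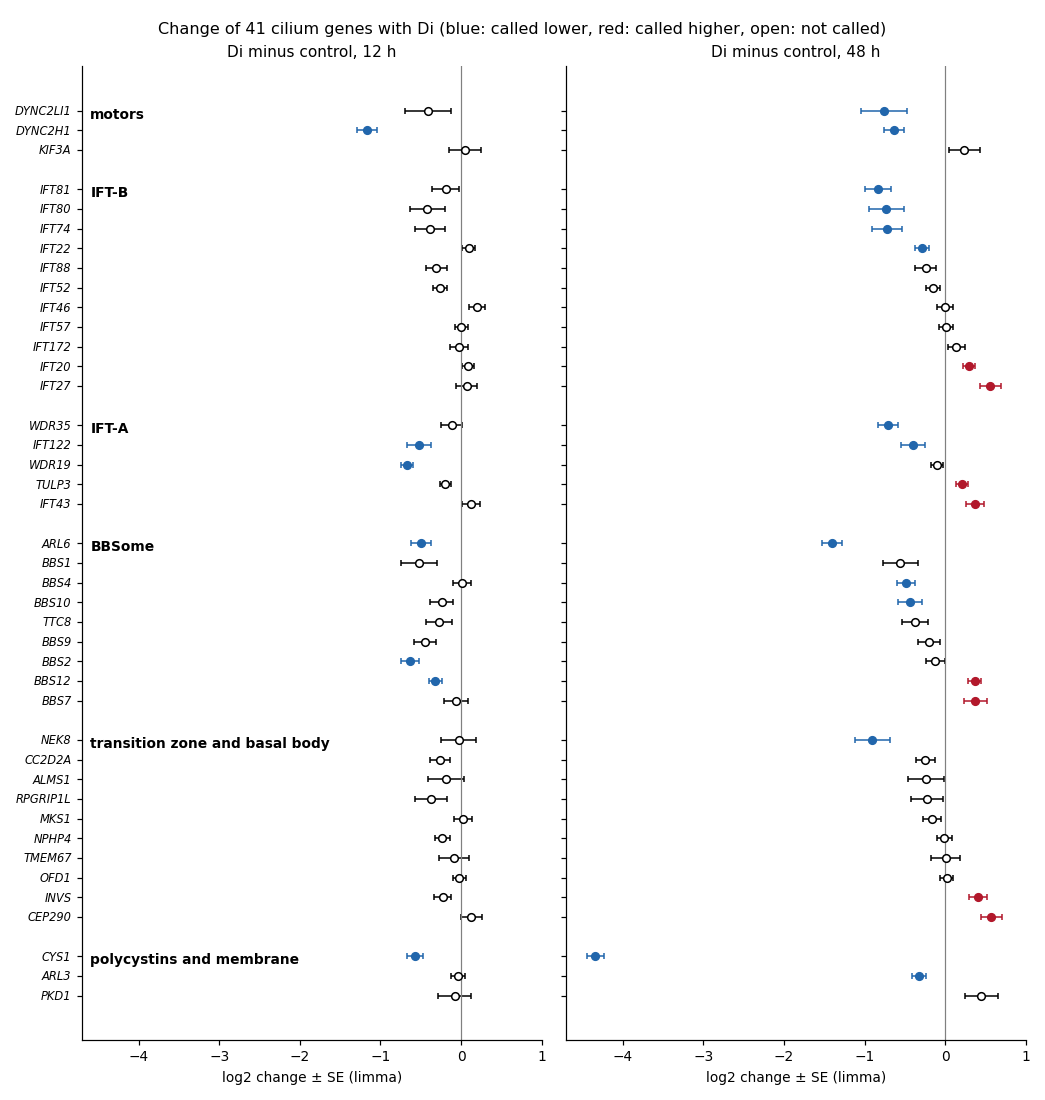
Log2 change of each of the 41 tested members, Di minus control, with its standard error (horizontal axis), at 12 h and at 48 h; genes run down the page by role, and open points were not called. At 12 h every call lies left of 0, at 48 h calls lie on either side, and CYS1 stands alone at -4.34.

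The motors were tested through 3 genes. DYNC2H1 encodes the heavy chain of cytoplasmic dynein 2, the motor of return transport. Its log2 levels were 5.29, 4.73 and 5.10 in Di at 12 h, against 6.23, 6.12 and 6.26 in control at 12 h. At 48 h they were 6.45, 6.52 and 6.53 in Di, against 7.01, 7.18 and 7.22 in control. The groups did not overlap at either time, and the lowest array at 12 h was replicate 2 of Di.

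DYNC2H1 was thus lower by 2.24-fold at 12 h (log2 change -1.16 ± 0.121 SE; limma adjusted p = 0.000644) and by 1.56-fold at 48 h (-0.64 ± 0.121; adjusted p = 0.00106). The difference of these changes, 0.53 ± 0.172, was called (adjusted p = 0.0315). These results come from the probe set 219469_at. On the other kept probe sets the change at 12 h was 0.26 for 1561939_at, whose arrays at 12 h all lay under a log2 value of 4, and -0.02 for 1565149_at, and neither was called (limma adjusted p = 0.468 and 0.96, over all kept probe sets). At 48 h they gave -0.19 (adjusted p = 0.516) and -0.31 (adjusted p = 0.165), of the same sign as the tested probe set but not called. With the mean of the 3 probe sets the 12 h change was -0.31 and was not called (adjusted p = 0.0826). Which transcripts each probe set measures was not tested.

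**Figure D3:**
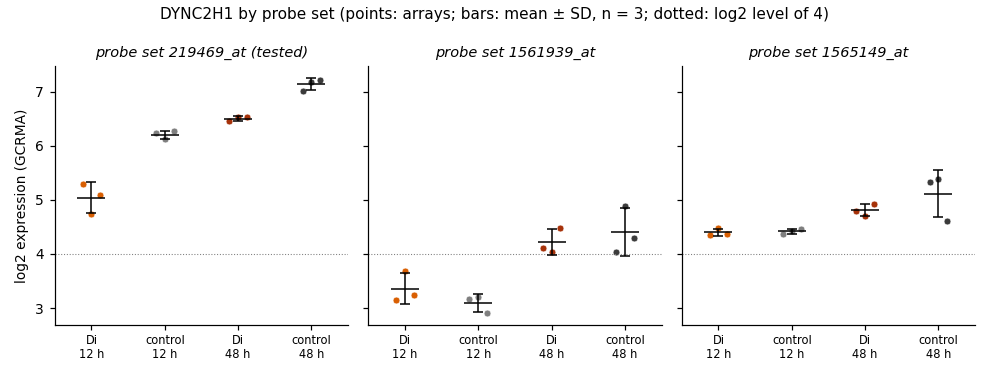
Log2 expression of DYNC2H1 on its 3 kept probe sets, one panel each; points are arrays, bars the mean ± SD of 3 arrays, and the dotted line the log2 value of 4. The Di arrays lie under the control arrays at either time on probe set 219469_at, whereas at 12 h the groups overlap on 1561939_at and 1565149_at.

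DYNC2LI1, the light intermediate chain of the same motor, stood at 8.36, 7.14 and 8.22 in Di and 8.53, 8.39 and 8.05 in control at 12 h, which overlap. At 48 h it stood at 7.68, 8.00 and 8.29 in Di, against 8.74, 8.95 and 8.54 in control, with every Di array lower. The 48 h change of -0.76 ± 0.284 passed narrowly (limma adjusted p = 0.0446) and was lost in 10 of 20 alternatives. Its probe set 203762_s_at gave -0.84 (adjusted p = 0.00297, over all kept probe sets).

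KIF3A, a motor subunit of kinesin-2, did not pass at either time. Its levels at 48 h were 7.43, 7.79 and 7.78 in Di and 7.54, 7.58 and 7.17 in control. The change was 0.24 ± 0.195 (limma adjusted p = 0.341), and the groups overlapped.

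None of the 11 IFT-B subunits was called at 12 h, where their changes ran between -0.42 and 0.20. At 48 h 4 were called lower and 2 higher, 54.5% together, against 50.9% of all genes. IFT81 and IFT74 form the tubulin-binding pair of the train, and both fell. IFT81 stood at 7.09, 7.36 and 7.44 in Di at 48 h, against 8.04, 8.13 and 8.23 in control at 48 h. IFT74 stood at 6.52, 7.13 and 7.26 in Di and at 7.61, 7.78 and 7.68 in control. Every Di array lay under every control array for this pair, with replicate 1 of Di the lowest.

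IFT81 was lower by 1.78-fold (log2 change -0.83 ± 0.164; limma adjusted p = 0.00131) and IFT74 by 1.64-fold (-0.72 ± 0.187; adjusted p = 0.00752). IFT81 at 12 h was 7.98, 7.44 and 8.03 in Di and 8.10, 8.17 and 7.75 in control, and its changes at the 2 times differed by -0.64 ± 0.232 (limma adjusted p = 0.0484), a call lost in 11 of 19 alternatives. IFT80, a peripheral IFT-B subunit mutated in skeletal ciliopathies, stood at 10.23, 10.60 and 10.74 in Di at 48 h, against 11.23, 11.47 and 11.06 in control. Its groups did not overlap, and the change was -0.73 ± 0.218 (adjusted p = 0.0157). Its probe set 226098_at gave -0.74 at 48 h (adjusted p = 0.000241) and -0.38 at 12 h (adjusted p = 0.0469), each over all kept probe sets. IFT22, a small GTPase-like subunit, had the smallest call among these, -0.29 ± 0.0842 (adjusted p = 0.0146). Its other kept probe set, 218785_s_at, gave 0.11 (adjusted p = 0.518, over all kept probe sets). The mean of both was -0.09 and not called (adjusted p = 0.467), and the call was lost in 4 of 20 alternatives. The other kept probe set of IFT74, 61732_r_at, gave -0.09 (adjusted p = 0.589, over all kept probe sets), and the mean of both was -0.40 and called (adjusted p = 0.00253).

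The IFT-B subunits called higher at 48 h were IFT27 and IFT20. IFT27 is a small GTPase that helps the BBSome leave the cilium. It stood at 8.21, 8.13 and 8.19 in Di at 48 h, against 7.68, 7.57 and 7.60 in control, without overlap. The increase was 1.47-fold (log2 change 0.56 ± 0.13; limma adjusted p = 0.00394). IFT20, which also sits at the Golgi apparatus, was higher by 0.30 ± 0.0749 (adjusted p = 0.00623), with Di arrays at 10.57, 10.54 and 10.54 and control arrays at 10.24, 10.20 and 10.32.

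IFT88, the subunit altered in the Oak Ridge polycystic kidney mouse, did not pass. Its 48 h levels were 7.58, 7.47 and 7.73 in Di and 7.92, 7.72 and 7.86 in control, with overlap and a change of -0.24 ± 0.129 (limma adjusted p = 0.149). At 12 h the groups of IFT88 narrowly did not overlap, lower with Di, and the change of -0.30 ± 0.129 was not called (adjusted p = 0.139). IFT46, IFT52, IFT57 and IFT172 were not called at either time; at 48 h their changes lay between -0.15 and 0.14. Members of the same train thus stood on opposite sides of 0 at 48 h.

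The IFT-A train carries cargo on the way back and brings membrane receptors in. Of its 5 tested genes, WDR19 and IFT122 were called lower at 12 h, when 9.8% of all genes were. WDR19 stood at 7.51, 7.49 and 7.41 in Di at 12 h, against 8.24, 8.09 and 8.08 in control. Its levels at 48 h were 8.68, 8.61 and 8.77 in Di and 8.85, 8.69 and 8.82 in control. The groups were apart at 12 h and overlapped at 48 h.

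WDR19 was lower by 1.59-fold at 12 h (log2 change -0.67 ± 0.0755; limma adjusted p = 0.000859), whereas the 48 h change was -0.10 ± 0.0755 (adjusted p = 0.282). The changes at the 2 times differed by 0.57 ± 0.107 (adjusted p = 0.00165). IFT122 stood at 6.22, 6.02 and 6.36 in Di and 6.58, 6.74 and 6.85 in control at 12 h, without overlap. The 48 h levels were 6.06, 5.75 and 6.24 in Di and 6.18, 6.49 and 6.58 in control, with overlap. Its changes were -0.52 ± 0.145 (limma adjusted p = 0.0377) and -0.40 ± 0.145 (adjusted p = 0.0388). Each of these calls was lost in 9 of 20 alternatives.

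WDR35, another IFT-A subunit, had probe sets that disagreed at 48 h. On the tested probe set, 226889_at, it stood at 8.13, 7.93 and 8.47 in Di and 8.99, 8.97 and 8.68 in control, a change of -0.71 ± 0.129 (limma adjusted p = 0.000788). On 226890_at it stood at 7.26, 7.36 and 7.40 in Di and 6.86, 6.64 and 6.70 in control, a change of 0.60 ± 0.115 (adjusted p = 0.00123, over all kept probe sets). Neither probe set's groups overlapped, and the mean of both gave -0.05 (adjusted p = 0.694), so no direction is given for the gene. IFT43 (0.37 ± 0.115; limma adjusted p = 0.0181) and TULP3 (0.21 ± 0.0725; adjusted p = 0.0318), which links membrane receptors to IFT-A, were called higher at 48 h. TULP3's call was lost in 7 of 20 alternatives and that of IFT43 in 3.

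The BBSome and its helpers had 9 tested genes, of which 3 were called lower at 12 h, and 3 lower and 2 higher at 48 h. The calls at 48 h made up 55.6%, against 50.9% of all genes. At 12 h 9.8% of all genes were called lower. ARL6 is the small GTPase that recruits the BBSome to membranes. It stood at 6.28, 5.94 and 6.06 in Di at 12 h, against 6.50, 6.54 and 6.73 in control. At 48 h it stood at 5.30, 5.55 and 5.52 in Di, against 6.79, 7.07 and 6.71 in control. No Di array reached a control array at either time.

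ARL6 was lower by 1.41-fold at 12 h (log2 change -0.50 ± 0.122; limma adjusted p = 0.022) and by 2.64-fold at 48 h (-1.40 ± 0.122; adjusted p = 2.67e-06). The changes at the 2 times differed by -0.90 ± 0.172 (adjusted p = 0.00175). Its other kept probe set, 223735_at, read the other way without a call, with changes of 0.45 at 12 h (adjusted p = 0.113) and 0.44 at 48 h (adjusted p = 0.0552, over all kept probe sets). With the mean of both, the 48 h change was -0.48 and still called (adjusted p = 0.00348), and the 12 h change was -0.02 (adjusted p = 0.914).

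BBS2, a core subunit of the BBSome, stood at 6.68, 6.41 and 6.56 in Di at 12 h, against 7.19, 7.21 and 7.14 in control. Its 48 h levels were 6.87, 7.16 and 7.33 in Di and 7.13, 7.23 and 7.36 in control. The groups were apart at 12 h and overlapped at 48 h. The change was -0.63 ± 0.115 at 12 h (limma adjusted p = 0.00685) and -0.12 ± 0.115 at 48 h (adjusted p = 0.409), and the difference of 0.51 ± 0.162 was called (adjusted p = 0.0291).

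BBS12, a chaperonin-like protein needed to assemble the BBSome, lay on opposite sides at the 2 times. It stood at 6.42, 6.49 and 6.57 in Di at 12 h, against 6.97, 6.75 and 6.71 in control. At the later time it stood at 7.85, 8.00 and 7.88 in Di, against 7.48, 7.62 and 7.53 in control. Groups did not overlap at either time, lower with Di at 12 h and higher at 48 h. The changes were -0.32 ± 0.0846 (limma adjusted p = 0.0313, lost in 8 of 20 alternatives) and 0.37 ± 0.0846 (adjusted p = 0.0037). They differed by 0.68 ± 0.12 (adjusted p = 0.00102).

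BBS4, a subunit that binds pericentriolar proteins, was called at 48 h, with 6.11, 6.24 and 6.04 in Di and 6.51, 6.73 and 6.61 in control, without overlap. Its change was -0.49 ± 0.111 (limma adjusted p = 0.00345), and its other kept probe set gave -0.85 (adjusted p = 0.00949, over all kept probe sets). BBS10, another chaperonin-like protein, was called lower (-0.44 ± 0.145; adjusted p = 0.0264) and BBS7, a core subunit, higher (0.38 ± 0.145; adjusted p = 0.049), the first lost in 5 and the other in 11 of 20 alternatives. BBS1, also a core subunit, missed at 48 h with 6.73, 6.80 and 6.75 in Di and 7.25, 7.26 and 7.44 in control, which did not overlap (-0.56 ± 0.218; adjusted p = 0.0516). Its 12 h arrays with Di were 6.76, 5.70 and 6.68, and without replicate 2 of that group, whose spread enters the shared error, the 48 h adjusted p was 9.16e-05.

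Of the 10 tested genes of the transition zone and basal body, none was called at 12 h. At 48 h NEK8 was called lower, and CEP290 and INVS higher, 30.0% together, against 50.9% of all genes. CEP290, which builds the links between microtubules and membrane at the gate, stood at 9.05, 9.23 and 9.21 in Di at 48 h, against 8.62, 8.72 and 8.45 in control. NEK8 and INVS encode a kinase and the scaffold inversin, which share the compartment just above the gate. NEK8 stood at 3.46, 3.94 and 4.37 in Di, against 5.19, 4.86 and 4.43 in control. INVS stood at 8.43, 8.38 and 8.48 in Di, against 7.93, 8.09 and 8.04 in control. None of these groups overlapped, although the highest Di and the lowest control array of NEK8 were close.

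CEP290 was higher by 1.48-fold (log2 change 0.57 ± 0.13; limma adjusted p = 0.00345) and INVS by 1.33-fold (0.41 ± 0.108; adjusted p = 0.00789). NEK8 was lower by 1.87-fold (-0.90 ± 0.214; adjusted p = 0.0044), with its Di mean of 3.92 under the filter's value of 4. The other kept probe set of NEK8, 1557172_x_at, gave -0.19 (adjusted p = 0.126, over all kept probe sets), and the mean of both was -0.55 and called. For INVS the changes at the 2 times differed by 0.64 ± 0.152 (adjusted p = 0.00691). The remaining 7 genes of this group, ALMS1, CC2D2A, MKS1, NPHP4, OFD1, RPGRIP1L and TMEM67, were not called at either time. Their 48 h changes lay between -0.24 and 0.02.

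Among the polycystins and membrane proteins, CYS1 showed the largest difference of all members. Cystin is a lipid-anchored protein of the ciliary membrane, and its gene is the one altered in the congenital polycystic kidney mouse. CYS1 stood at 9.16, 9.00 and 9.01 in Di at 12 h, against 9.67, 9.66 and 9.55 in control. At 48 h it stood at 4.51, 4.48 and 4.88 in Di, against 8.91, 8.95 and 9.03 in control. The 3 Di arrays at 48 h lay far under all other arrays and close to the log2 value of 4 used as the floor.

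CYS1 was lower by 1.48-fold at 12 h (log2 change -0.57 ± 0.103; limma adjusted p = 0.00675) and by 20.3-fold at 48 h (-4.34 ± 0.103; adjusted p = 1.09e-10). Of the 10623 genes tested, 5 had a lower change at 48 h. The changes at the 2 times differed by -3.77 ± 0.146 (adjusted p = 1.53e-08), and these calls were kept in every alternative tried. The gene has 1 probe set on the array, so no other probe set bears on it. PDZK1, the proximal tubule marker that was measurable, moved the same way, with 8.50, 8.42 and 8.39 in Di at 48 h and 10.40, 10.51 and 10.41 in control (-2.00 ± 0.0686; adjusted p = 1.88e-09). The summed linear level of the 11 measured proximal tubule markers ranged from 403 to 434 over the Di arrays at 48 h. Over the control arrays it ranged from 1422 to 1531. This sum mostly repeats PDZK1, since the other 10 markers lay under a log2 value of 4 on all 12 arrays. What part the change of PDZK1 has in that of CYS1 was not tested.

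ARL3, a small GTPase that releases lipid-anchored cargo inside the cilium, was called lower at 48 h (-0.32 ± 0.0864; limma adjusted p = 0.0088), with 10.16, 10.06 and 10.07 in Di and 10.42, 10.30 and 10.54 in control. PKD1, which encodes polycystin-1, stood at 5.87, 5.65 and 5.70 in Di at 48 h and 5.09, 5.33 and 5.46 in control. Its groups did not overlap, but the change of 0.45 ± 0.204 did not pass (adjusted p = 0.0903). PKD1 has near-identical pseudogene copies, so its signal may be shared with them.

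**Figure D4:**
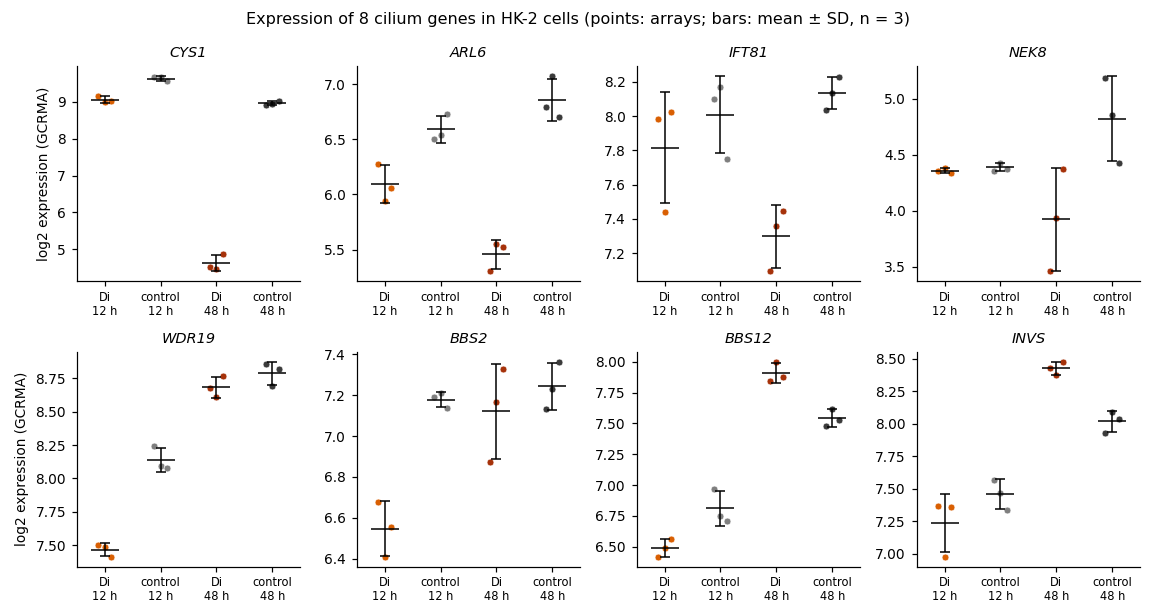
Log2 expression of 8 members by group, Di left of control at each time; points are arrays and bars the mean ± SD of 3 arrays, and each panel has its own vertical scale. CYS1 and ARL6 are lowest in Di at 48 h, WDR19 and BBS2 are apart from control at 12 h but not at 48 h, and BBS12 is under control at 12 h and above it at 48 h.

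The promoter windows were then set beside these calls. Of the 11 members called lower at 48 h that are in the table, 7 held GTTGCC or GGCAAC (63.6%). Of the 8 called higher, 2 did (25.0%). These letters were in 41.5% of all member windows and in 12.2% of all windows in the table. No member window held GTTGCC and GGCAAC joined with a gap of up to 3 bases, so only part of an X-box was matched. The sequences of DYNC2H1, DYNC2LI1, IFT122 and ARL6 printed above belong to genes called lower, and those of IFT27 and TULP3 to genes called higher. CYS1 was not in the table. These are counts of few genes, given as a description.

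The control groups also differed from each other. In control cells at 48 h, 18 of the 41 members were called higher than in control cells at 12 h and 2 lower, or 43.9% and 4.9%. With the arrays centred on their medians, 27 members were called higher and 2 lower. With that centring 2882 of the 10623 genes were called higher and 2715 lower. Without centring, the shares over all genes were 21.9% higher and 31.0% lower, 52.9% together. The groups did not overlap for 27 members on the higher side and 4 on the lower (75.6%), against 65.2% of all genes, 27.7% higher and 37.5% lower. The median change of the members was 0.37, against -0.06 over all genes, and 33 of 41 were positive. Time in culture and any handling difference between the times cannot be told apart.

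The largest such difference was that of IFT27, with 7.68, 7.57 and 7.60 in control at 48 h, against 6.40, 6.19 and 6.22 in control at 12 h (log2 change 1.35 ± 0.13; limma adjusted p = 7.2e-06). IFT20 (0.96 ± 0.0749), DYNC2H1 (0.93 ± 0.121), KIF3A (0.86 ± 0.195), CEP290 (0.77 ± 0.13) and BBS12 (0.73 ± 0.0846) followed, each without overlap. DYNC2H1 was higher on all of its 3 kept probe sets here, by 1.31 on 1561939_at and 0.70 on 1565149_at. On 1561939_at, however, all arrays at 12 h lay under the filter's value, so it was kept through its 48 h arrays alone. Such a selection favours a higher level at 48 h, so the direction of 1561939_at is not a separate test. All 11 IFT-B subunits and all 9 genes of the BBSome group had positive changes, of which 5 and 5 were called. Over all genes, 4741 of 10623 changes were positive. The members called lower were CYS1 (-0.67 ± 0.103; limma adjusted p = 0.000248) and the centrosome gene ALMS1 (-0.87 ± 0.223; adjusted p = 0.00678).

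IFT27, IFT20, IFT43, BBS7, BBS12, CEP290 and INVS were called higher both with Di at 48 h and over time in the control cells. On their tested probe sets DYNC2H1, IFT22, BBS4 and BBS10 were called higher over time in control and lower with Di at 48 h. These comparisons share the control arrays at 48 h, so their values are set side by side and not related to each other.

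Other genes of the same pathways were taken as lists of their roles. Each was read on 1 probe set, and neither other probe sets nor the alternatives are given for these genes. At 12 h no gene of these 7 lists was called higher; 2 of 8 cargo genes, 1 of 13 other transition zone genes, 5 of 19 basal body genes, 2 of 8 disassembly genes and 1 of 4 hedgehog genes were called lower, where 3.9% of all genes were called higher and 9.8% lower. At 48 h calls lay in either direction, and these lists are to be read against 22.9% of all genes called higher and 28.0% called lower at that time. Of 12 other transport subunits 3 were called lower and 1 higher at 48 h, and none was called at 12 h. DYNLT2B and DYNC2I2, a light chain and an intermediate chain of the same dynein as DYNC2H1, fell at 48 h. DYNLT2B stood at 8.03, 8.10 and 8.00 in Di, against 8.97, 9.11 and 8.77 in control (-0.91 ± 0.143; limma adjusted p = 0.000285). DYNC2I2 stood at 8.03, 8.04 and 7.98 in Di, against 8.64, 8.72 and 8.77 in control (-0.70 ± 0.0888; adjusted p = 5.53e-05). DYNC2I1, another intermediate chain, was not called (0.24; adjusted p = 0.0639) and DYNLRB1, a chain shared with other dyneins, was called higher (0.21; adjusted p = 0.0437).

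Genes that handle ciliary membrane cargo were called lower in 2 cases and higher in 2 of 8 at 48 h. UNC119B, a carrier of myristoylated proteins, stood at 8.89, 8.76 and 8.89 in Di and 9.65, 9.78 and 9.89 in control (-0.93 ± 0.104; limma adjusted p = 2.05e-05). It was also lower at 12 h (-0.44; adjusted p = 0.0192). LZTFL1, a regulator of the BBSome, was lower at either time (-0.44, adjusted p = 0.0422, and -0.48, adjusted p = 0.00798). MKKS, a chaperonin-like partner of BBS10 and BBS12, was higher at 48 h (0.78 ± 0.101; adjusted p = 6.06e-05).

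Of 13 other transition zone genes, 5 were called lower and 2 higher at 48 h. TMEM107 stood at 4.93, 4.78 and 5.35 in Di, against 6.14, 6.74 and 6.60 in control (-1.47 ± 0.176; limma adjusted p = 3.35e-05). The tectonics TCTN1 (-0.65) and TCTN3 (-0.75) and B9D1 (-0.81), parts of the same gate complex, were also called lower. RPGR, a regulator at the gate that is mutated in retinal dystrophy, stood at 6.69, 6.51 and 6.73 in Di, against 5.41, 5.32 and 5.66 in control (1.18 ± 0.119; adjusted p = 8.96e-06). The groups did not overlap for TMEM107 or RPGR.

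Of 19 basal body and ciliogenesis genes, 3 were called lower and 4 higher at 48 h. The calls at 12 h included the appendage gene ODF2 (-0.92; limma adjusted p = 0.014) and the satellite scaffold PCM1 (-0.37; adjusted p = 0.0487). C2CD3, needed for the appendages that anchor the mother centriole, changed side: it stood at 6.18, 6.24 and 6.09 in Di and 6.55, 6.78 and 6.62 in control at 12 h. At 48 h it stood at 7.08, 7.20 and 7.15 in Di, against 5.89, 6.04 and 5.84 in control. The changes were -0.48 ± 0.082 (limma adjusted p = 0.00499) and 1.22 ± 0.082 (adjusted p = 3.32e-07), and they differed by 1.71 ± 0.116 (adjusted p = 1.22e-06). CEP89 (0.83), TTBK2 (0.63) and CEP120 (0.50), a further appendage protein, the kinase that starts cilium growth and a centriole protein, were also called higher at 48 h. SDCCAG8 (-0.73), RAB3IP (-0.53) and CCP110 (-0.53), the last a cap that holds back cilium growth, were called lower.

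Genes that act in cilium disassembly, most of them also mitotic, were called lower in 4 cases and higher in 1 of 8 at 48 h. NEDD9, the scaffold that activates AURKA at the cilium, stood at 5.15, 5.42 and 5.31 in Di, against 6.88, 7.00 and 6.86 in control (-1.62 ± 0.104; limma adjusted p = 2.34e-07). AURKA (-1.02), NEK2 (-1.19) and PLK1 (-1.16) were lower and NDE1 (0.76) higher. In control at 48 h over control at 12 h, 5 of these 8 genes were called lower and none higher, with log2 changes of -2.28 for AURKA and -2.06 for PLK1. Of all genes, 31.0% were called lower and 21.9% higher in that comparison. Cell division and the state of the cilium cannot be told apart in these genes.

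Of the hedgehog pathway, which signals through the primary cilium, 4 of 12 genes were measurable, too few for a share to be compared with the 28.0% of all genes called lower at 48 h, and 3 of them were called lower. PTCH1, the receptor and itself a target of the pathway, stood at 5.44, 5.58 and 5.47 in Di, against 7.64, 7.73 and 7.46 in control (-2.11 ± 0.118; limma adjusted p = 8.08e-08), without overlap. SUFU (-0.77; adjusted p = 0.0291) and EVC (-0.43; adjusted p = 0.0262) were also called, and GPR161 was not (-0.44; adjusted p = 0.0925). GLI1, GLI2, GLI3 and SMO did not pass the filter.

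Among transcription factors linked to cilia or to cystic kidney, 5 of 11 were tested. RFX3 was not called at either time (-0.43, adjusted p = 0.0868, and -0.32, adjusted p = 0.11). RFX1 was higher at 48 h (0.31 ± 0.0972; limma adjusted p = 0.0209). GLIS2, whose loss causes nephronophthisis, stood at 4.82, 4.81 and 4.77 in Di at 48 h, against 5.82, 6.06 and 5.88 in control (-1.12 ± 0.0873; adjusted p = 1.14e-06). GLIS3 stood at 10.23, 10.27 and 10.28 in Di, against 9.43, 9.58 and 9.11 in control (0.89 ± 0.191; adjusted p = 0.00236). FOXJ1, the factor of motile cilia, did not pass the filter.

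**Figure D5:**
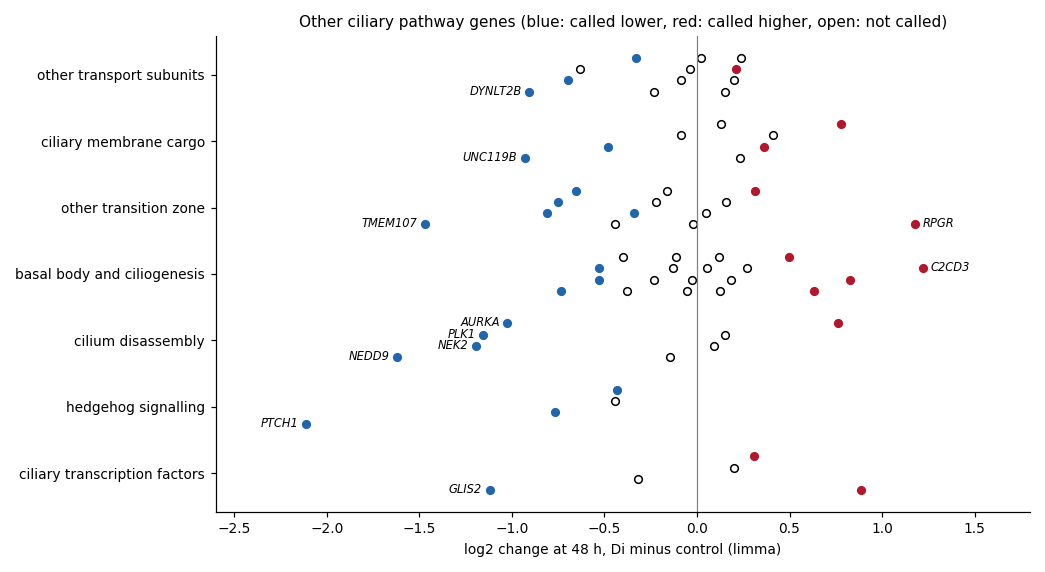
Log2 change at 48 h, Di minus control (horizontal axis), of the tested genes of 7 other ciliary lists, one point per gene, blue called lower, red called higher and open not called; called genes with a log2 change of at least 0.9 in size are named. PTCH1 at -2.11 and NEDD9 at -1.62 are the lowest, and C2CD3 at 1.22 and RPGR at 1.18 the highest.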

How the data were processed

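Expression of HK-2 cells was measured on 12 Affymetrix arrays, in 4 groups of 3 biological replicates. GCRMA, which corrects, normalises and summarises probe values, gave the deposited log2 values, per the submitters' processing notes (version not given). They were used without further normalisation. Of 54675 probe sets, 62 controls were left out, and 21715 that exceeded a log2 value of 4 on at least 3 arrays were kept. Probe sets were named from a gene table of the array, with symbols updated from a table of current names. For each gene the kept probe set of 1 gene with the highest mean was used, not ending in _x_at if possible, which gave 10623 genes. The 4 group means were estimated together from the 12 arrays (limma 3.58.1, lmFit and eBayes, two-sided; R 4.3.3), with Benjamini-Hochberg adjustment over all genes. Errors of log2 changes are standard errors, and folds are 2 raised to them. The number of arrays limits the precision, since arrays give no counting depth.

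On simulated data for the 48 h comparison (10623 genes), 55% of 100 genes changed by 0.5 on the log2 scale were called. Of 100 genes changed by 1, 90% were called, with 6 false calls in all. Only these genes were changed there, whereas 5412 of the 10623 genes were called in the real comparison. The adjustment depends on that share, so these rates do not carry over to the real data. Replicates are labelled biological, with no source named, so p-values measure the spread between these samples. Same-numbered Di and control arrays did not deviate together (correlations between -0.227 and 0.154 at 12 h and between -0.264 and 0.0945 at 48 h), so the numbers were not taken as pairs. The members, the other gene lists and the tests were chosen with earlier results of these data known. Values on single arrays are given at both times for the members called at 12 h. The 12 called members without overlap that had the largest changes at 48 h have values at 48 h, some also at 12 h. So do CYS1, DYNC2H1, IFT88, KIF3A and PKD1. Values of other genes were added after they were seen. Alternatives were other filters, scalings, moderation, probe set rules, a replicate block, fits within a time and leaving out each array.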

Additional observations from a re-analysis of the deposited data

Results flagged for a closer look

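The change with Di at 48 h minus that at 12 h, tested as an interaction, was called for 13 of the 41 members (limma, adjusted p under 0.05; 38.3% of all genes were called). The difference was negative, lower at 48 h, for CYS1 (-3.77), ARL6 (-0.90), NEK8 (-0.87), IFT81 (-0.64), WDR35 (-0.59), BBS4 (-0.49) and IFT22 (-0.38). It was positive for BBS12 (0.68), INVS (0.64), WDR19 (0.57), DYNC2H1 (0.53), BBS2 (0.51) and TULP3 (0.40). WDR19, BBS2 and DYNC2H1 were called lower at 12 h and had smaller decreases at 48 h, whereas BBS12, INVS and TULP3 had negative changes at 12 h and were called higher at 48 h. The calls of WDR19, BBS12, ARL6, INVS and CYS1 were kept in every listed alternative, which do not include reading other probe sets singly. Other kept probe sets gave a difference of 0.49 for WDR35 (limma adjusted p = 0.0372), opposite in sign, of -0.96 for BBS4 (0.0393), of -0.45 and -0.29 for DYNC2H1, opposite in sign (0.288 and 0.392), of -0.0077 for ARL6 (0.986), of 0.16 for IFT22, opposite in sign (0.530), of -0.019 for NEK8 (0.933) and of 0.50 for TULP3 (0.161), each adjusted over all kept probe sets. The call was lost for NEK8 in 13 of 18 alternatives and, of 19 alternatives each, for IFT81 in 11, BBS2 and BBS4 in 9, DYNC2H1 in 7, IFT22 and WDR35 in 6 and TULP3 in 1.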

How the results depend on the processing

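The alternatives counted here do not include reading other probe sets singly. Of the 7 members called at 12 h, 3 kept the call in all alternatives (WDR19, BBS2 and CYS1). Of the 22 called at 48 h, 12 did (DYNC2H1, IFT20, IFT27, IFT74, IFT81, BBS4, BBS12, ARL6, CEP290, INVS, NEK8 and CYS1). Of the 20 called between the control groups, 14 did. With only the arrays of that time in the fit, 4 members and 575 genes were called at 12 h. With no filter, 7 members were called for the difference of changes. Leaving out 1 array gave 4 to 7 members and 745 to 1457 genes at 12 h, 15 to 24 members and 4734 to 5899 genes at 48 h, 7 to 14 members and 3554 to 4417 genes for the difference, and 16 to 25 members and 4848 to 6155 genes between controls. At 12 h 4 members were called without replicate 2 of Di, and 4 without replicate 2 of control; the gene count was 745 without that control array and 784 without control replicate 3. For the difference, 8 members were called without replicate 2 of the 48 h Di arrays, 7 without control replicate 1 and 8 without control replicate 2 of that time. The DYNC2H1 change at 12 h turned to 0.26 (limma adjusted p = 0.468) on probe set 1561939_at, chosen after seeing the data, and its difference of changes to -0.071 (0.748) with the mean of its probe sets; the cause was not tested. Among all genes called at 12 h, median centring raised the share that were higher to 54.4%, and quantile normalisation to 38.0%, against 28.5%. No member was called higher at 12 h in either setting. Among all genes called between controls, centring gave 51.5% higher, against 41.3%, and it called 29 members. With the replicate number as a block, 5 members were called at 12 h, 19 at 48 h, 11 for the difference and 18 between controls; the numbers do not pair the samples. Levels near the floor limit NEK8, CYS1 with Di at 48 h, and the untested IFT140, BBS5 and PKHD1.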
